A study of Mesocricetus auratus with 10 samples.

Results

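Ubiquitin-conjugating enzymes (E2 enzymes, gene names beginning with UBE2) and ubiquitin-specific proteases (USP genes) were followed in livers of the golden hamster, Mesocricetus auratus, under a high fat diet. The genes were taken as all non-control probes whose gene name begins with UBE2, or with USP and a digit, with USP18 left out by the rule. This gave 82 genes, 35 UBE2 and 47 USP, of 14437 named genes on the array, and 457 probes of 116452. All 82 genes had a probe bright enough to test, among 13830 genes tested. The brightest probe stood for its gene. Of the 82 names, 77 are gene symbols in RefSeq (assembly BCM_Maur_2.0), and UBE2CBP, UBE2Q2L, USP29, USP43_PREDICTED and USP9Y were not. UBE2CBP and USP6NL met the name rule but are no E2 enzyme and no ubiquitin protease.

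The study measured liver RNA of 10 male hamsters on the high fat diet (HFD), 1 animal per sample, on two-colour oligonucleotide arrays. Every animal was set against the same pool of liver RNA from 10 hamsters on a standard diet (STD), on 2 arrays with the dyes exchanged, 20 arrays in all. The labels give no diet composition, feeding time or age. The pool is 1 reference, so a ratio against it carries the spread of the HFD animals and leaves out that of the STD animals. Ratios below are log2 of HFD liver over the STD pool, averaged over the 2 arrays of an animal, and a mean ± SD is over the 10 HFD animals. A gene was called where its mean ratio differed from 0 by limma's moderated test, two-sided, at an adjusted p under 0.05 (Benjamini-Hochberg over the 13830 genes).

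Ubiquitin is passed from an activating E1 enzyme to the active-site cysteine of an E2 enzyme, and from there, with the help of an E3 ligase, to a target protein. The choice of E2 helps to set which kind of ubiquitin chain is built, and so whether a protein is degraded by the proteasome or takes part in signalling. Some E2 enzymes carry relatives of ubiquitin such as SUMO, NEDD8 or ISG15. The USP enzymes are cysteine proteases that remove ubiquitin again, and in the liver both families act on enzymes and receptors of lipid metabolism, on degradation of proteins from the endoplasmic reticulum and on inflammatory signalling.

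The probes are DNA of 60 bases, printed here 5′ to 3′ as the scanner files give them. Most E2 enzymes have a His-Pro-Asn triplet close to the active-site cysteine. Its codons can be searched for as the pattern CANCCNAAN, in which N is any base, so that the pattern also takes Gln and Lys codons. Among probes with a value on all arrays it was present in 5 of 151 UBE2 probes (3.31%) and in 3 of 304 USP probes (0.987%). Over all non-control probes, without that condition, the share was 1.33%. In the same order, it was present on the opposite strand in 0%, 1.97% and 1.21%. Of the 5 UBE2 probes 4 are shown to let the letters of these related genes be compared, with the pattern in capitals, and the remaining one belongs to UBE2R2. A match is one of letters only, since the reading frame of the probes was not given.
UBE2D3: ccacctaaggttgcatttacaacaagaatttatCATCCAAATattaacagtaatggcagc
UBE2L3: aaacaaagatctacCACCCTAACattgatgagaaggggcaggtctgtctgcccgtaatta
UBE2S: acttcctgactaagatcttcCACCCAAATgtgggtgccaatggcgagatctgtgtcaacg
UBE2T: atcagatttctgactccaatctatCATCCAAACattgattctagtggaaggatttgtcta
None of the 5 was the brightest probe of its gene. Between different genes of the 82, the longest stretch shared by a pair of probes was 21 bases, in UBE2E1 and UBE2E2, a pair of closely related E2 enzymes. The shared bases are in capitals.
UBE2E1: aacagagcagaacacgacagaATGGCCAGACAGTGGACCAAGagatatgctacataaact
UBE2E2: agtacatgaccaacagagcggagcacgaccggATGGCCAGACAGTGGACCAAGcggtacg
These probes gave ratios of 0.11 and 0.16.

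On the HFD side 36 of the 82 genes were higher, 24 were lower and 22 were not called. Of all named genes tested, 31.4% were higher and 28.9% lower, 60.3% in either direction, against 43.9% and 29.3%, 73.2% in all, of the 82. Every count by role or by list below is to be read beside these shares of all genes. The median ratio of the 82 genes was 0.04 and that of all genes 0.01, and the median size of the ratio, sign aside, was 0.14 against 0.11. Most differences were therefore small. Only UBE2L6, UBE2C and UBE2O were called and differed at least 1.5-fold (1.79% of all genes were called and at least 1.5-fold higher, 2.1% lower). In 33 of the 60 called genes (55.0%) all 10 animals lay on the same side of 0, near the 52.2% of the called genes on the whole array (31.5% of all genes tested were called and did so). Among UBE2 genes 17 were higher and 10 lower, with a median ratio of 0.06. Where all probes of a gene were averaged in place of the brightest one, that median turned to -0.06, and 28 of the 82 genes were higher and 34 lower. Among USP genes 19 were higher and 14 lower, with a median of 0.01 and a range from -0.45 to 0.38.

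**Figure D1:**
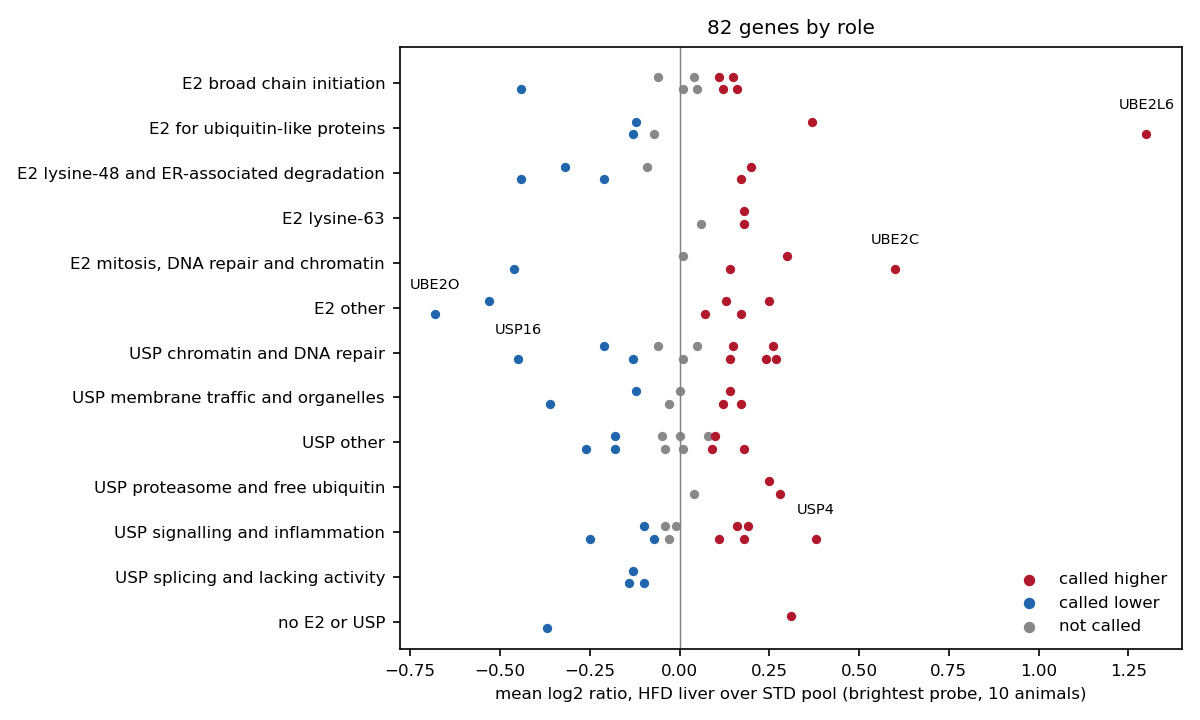
Mean log2 ratio (HFD liver over STD pool, 10 animals, horizontal axis) of the brightest probe of each of the 82 genes, 1 point per gene, in rows by role and coloured by call. UBE2L6 at 1.30, UBE2C at 0.60 and UBE2O at -0.68 lie outside the range of the USP genes, -0.45 to 0.38. UBE2H at -0.53 and UBE2B at -0.46 lie outside it too.

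Libraries and tissue were looked at first. On the arrays, 74.8% to 97.2% of spots were well above background in HFD RNA and 74.1% to 95.8% in the pool. A set of 6 arrays stood apart, those of animals 5 to 10 on which the HFD sample carried Cy3: their log2 ratios over all probes correlated at 0.817 to 0.902 with each other and at 0.315 to 0.755 with the other 14 arrays. Where the call of a gene described below was lost without them, or its ratio moved by over 1.5 times, the value on the other 14 is given too, taken from a limma fit on the single arrays that adjusts for dye and takes arrays of 1 animal as correlated. Of 10 hepatocyte markers on the list 8 could be tested. ALB was at -0.23 ± 0.12, and 7 of the 8 were lower, with a median of -0.50 and a range from -1.17 to -0.04. On the 14 arrays 6 of the 8 were lower, with a median of -0.33, and TF went from -0.20 to 0.05 and was not called. Of 7 macrophage markers, 5 were higher, LGALS3 the most at 1.30 ± 0.37, and 2 were lower, CD163 at -1.25 ± 0.32 and C1QA at -0.56 ± 0.30. Less of a cell type and less RNA per cell cannot be told apart in whole liver, and the part of these shifts in the values below was not tested.

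The E2 enzymes for relatives of ubiquitin held the highest gene of the set. UBE2L6, which carries the interferon-induced modifier ISG15, had a ratio of 0.76 in animal 5 at the lowest, a median of 1.27 and 1.75 in animal 1 at the highest. All 10 animals lay above the pool. The mean was 1.30 ± 0.35 (SD, n = 10), 2.46-fold, with an adjusted p of 1.49e-07 by limma, and 1.37 on the 14 arrays. Its second probe gave 1.02. The pair is printed because both gave higher ratios from different stretches of 1 assembled transcript.
UBE2L6, brightest: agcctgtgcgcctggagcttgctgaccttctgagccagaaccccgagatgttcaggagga
UBE2L6, second: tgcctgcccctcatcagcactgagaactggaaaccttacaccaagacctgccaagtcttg
UBE2F, an E2 enzyme for NEDD8, was higher at 0.37 ± 0.09, from 0.23 to 0.49 over the animals, and at 0.37 on the 14 arrays as well. Its further probe gave 0.39. UBE2M, the other E2 enzyme for NEDD8, was lower at -0.13 ± 0.07, and its 2 further probes, of a transcript read as the opposite strand by the score described further on, were at -0.80 and -0.40. On the 14 arrays UBE2M was at -0.02 and not called (adjusted p = 0.597 by limma). UBE2Z was at -0.07 ± 0.11 and was not called.

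Across the 10 animals the ratio of UBE2L6 went with that of interferon-induced genes. Of 11 such genes on the list 7 were tested and 5 were higher (RSAD2 at 1.39 ± 0.47, IRF7 at 0.94 ± 0.34, IFIT1 at 0.91 ± 0.29, IFIT2 at 0.52 ± 0.15 among them), and MX1 at -0.02 and MX2 at 0.00 were not called. Pearson's r between UBE2L6 and the mean of the 7 genes was 0.86 (permutation p = 0.0025, adjusted 0.0025, two-sided) and Spearman's rho was 0.842 (permutation p = 0.00352, adjusted 0.00352). Without animals 5 and 9, which lay farthest from the median of the list, r was 0.817. It was 0.976 over animals 5 to 10, 0.753 with HFD RNA in Cy5 alone and 0.843 with it in Cy3 alone, and 0.93 in the first scan session and 0.707 in the later ones. The list mean ran from 0.34 to 0.88. All these values share the pool and the arrays, and this was 1 of 2 such relations computed.

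**Figure D2:**
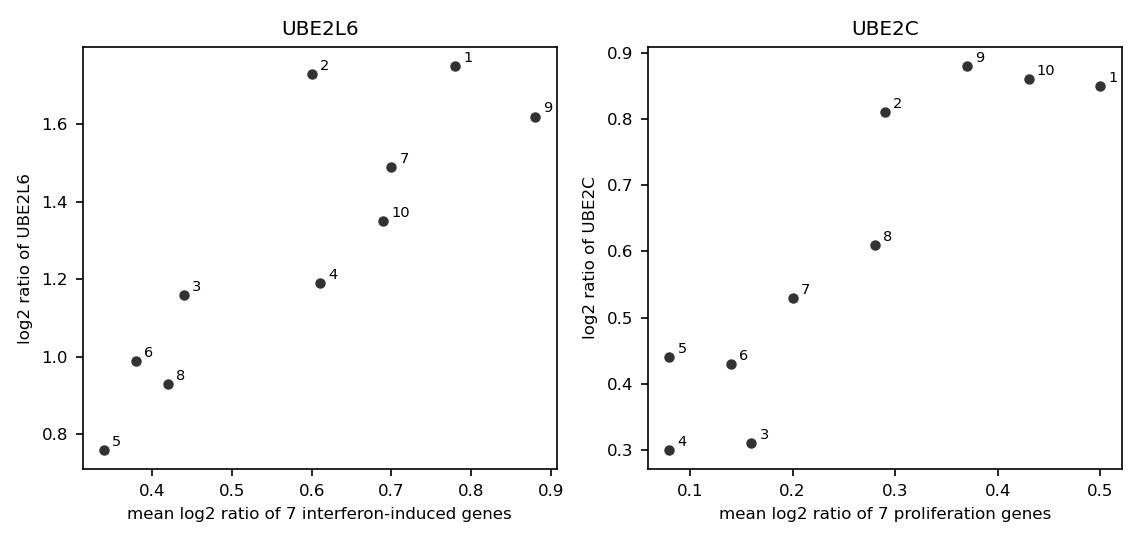
Log2 ratio (HFD liver over STD pool) of UBE2L6 against the mean of 7 interferon-induced genes, and of UBE2C against the mean of 7 proliferation genes, 1 point per animal with its number. Animals 5, 6 and 8 are lowest for UBE2L6 and animals 1, 2 and 9 highest. For UBE2C, animals 1, 2, 9 and 10 form the upper end.

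Among the E2 enzymes of mitosis, DNA repair and chromatin, 3 of 5 were higher and 1 lower. UBE2C, which works with the anaphase-promoting complex to degrade mitotic cyclins, had a lowest ratio of 0.30 in animal 4, a median of 0.57 and a highest of 0.88 in animal 9. Animals 1, 2, 9 and 10 lay at 0.81 or above, the other 6 at 0.61 or below, and none overlapped 0. The mean was 0.60 ± 0.23, 1.52-fold (adjusted p = 4.51e-06 by limma), and 0.53 on the 14 arrays. Further probes on another assembled transcript gave 0.22 and 0.25, and the mean of all its probes was 0.36. UBE2S, the partner of UBE2C that lengthens chains on the same complex, was at 0.01 ± 0.14 and was not called. UBE2T, which acts in repair of DNA crosslinks, was higher at 0.14 ± 0.17 and at 0.08 on the 14 arrays, where it was not called. Its 2 further probes, of the same transcript, were higher at 0.34 and 0.27. As plain means of the 14 arrays these 2 were at 0.34 and 0.21. UBE2A and UBE2B are near-identical E2 enzymes that ubiquitinate histones and the sliding clamp of replication. UBE2A was higher at 0.30 ± 0.06, from 0.23 to 0.40, whereas UBE2B was lower at -0.46 ± 0.21, from -0.69 to -0.06, and all 3 further probes of UBE2B were lower. For UBE2B the 4 animals 1 to 4 lay between -0.36 and -0.06 and animals 5 to 10 between -0.69 and -0.57, and on the 14 arrays its ratio was -0.18 (adjusted p = 0.0107 by limma). The 2 further probes of UBE2A, of another transcript, were lower at -0.23 and -0.32.

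UBE2C also went with genes of dividing cells. Of 7 proliferation genes 6 were higher, CDK1 the most at 0.57 ± 0.27 and MKI67 at 0.35 ± 0.31, and AURKA at -0.02 ± 0.08 was not called. Pearson's r with the mean of the 7 was 0.909 (permutation p = 0.00051, adjusted 0.00102) and Spearman's rho 0.867 (permutation p = 0.00227, adjusted 0.00352). Without animals 1 and 10 r was 0.906, over animals 5 to 10 it was 0.962, and it was 0.875 with HFD RNA in Cy5 alone, 0.77 in Cy3 alone, 0.898 in the first scan session and 0.605 in the later ones. The list mean was 0.25 ± 0.15 over the animals.

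The E2 enzymes that build degradative chains on proteins of the endoplasmic reticulum and the cytosol went in both directions, 2 of 6 higher and 3 lower. UBE2G2, the soluble E2 enzyme of degradation from the endoplasmic reticulum, had a lowest ratio of -0.66, a median of -0.45 and a highest of -0.19. All 10 animals lay below the pool. It was lower at -0.44 ± 0.14 (adjusted p = 1.82e-06 by limma) and at -0.41 on the 14 arrays, on its only probe. UBE2J2, anchored in the membrane of the same compartment, was lower at -0.32 ± 0.23. Animals 1 to 4 lay between -0.17 and 0.02 and animals 5 to 10 between -0.57 and -0.37, and on the 14 arrays it was at -0.07 and not called. The further probe of UBE2J2 was at -0.02 and not called. UBE2J1, a close relative of UBE2J2, was at -0.09 ± 0.15 and was not called. UBE2K was lower at -0.21 ± 0.11, with 0.02 where HFD RNA was in Cy5 and -0.43 where it was in Cy3. Its 2 further probes, of another transcript, were at 0.01 and 0.02 and were not called. UBE2G1 and UBE2R2 were higher at 0.20 ± 0.08 and 0.17 ± 0.06. UBE2G1 was at 0.09 on the 14 arrays, where it was still called higher. A further transcript of each was lower, with 4 probes of UBE2G1 from -0.58 to -0.09, 3 of them called, and 2 of UBE2R2 at -0.51 and -0.39. By the score described further on, the brightest UBE2G1 probe and these 2 UBE2R2 probes are of transcripts read as the opposite strand. On the 14 arrays UBE2R2 was at 0.08 and not called.

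In the group of E2 enzymes that start chains with many ligases, 4 of 9 were higher and 1 lower. UBE2D4 (0.15 ± 0.06), UBE2E1 (0.11 ± 0.12), UBE2E2 (0.16 ± 0.22) and UBE2D3 (0.12 ± 0.10) were higher. On the 14 arrays UBE2D4 was at 0.26 and UBE2E2 at 0.25, UBE2E1 (0.06) and UBE2D3 (0.03) were not called, and 7 of the 11 further probes of UBE2D3 were lower and none higher. UBE2D1, UBE2D2, UBE2E3 and UBE2L3 were not called, with ratios between -0.06 and 0.05. UBE2W, which attaches ubiquitin to the amino end of proteins, was lower at -0.44 ± 0.25, with animals 1 to 4 between -0.32 and -0.04 and animals 5 to 10 between -0.71 and -0.54. On the 14 arrays it was at -0.19 (adjusted p = 0.00103 by limma). The genes of the pair that builds signalling chains went in both directions by probe. On the brightest probes UBE2N, the catalytic part, was higher at 0.18 ± 0.12 and its inactive partner UBE2V2 at 0.18 ± 0.08, while UBE2V1, the other partner, was at 0.06 ± 0.17 and was not called. Of 5 further probes of UBE2V2 3 were lower and 1 higher, with a median of -0.36, and of 2 further probes of UBE2N 1 was lower at -0.50 and 1 higher at 0.18.

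Of the remaining E2 enzymes, 4 of 6 were higher and 2 lower. UBE2O, a large enzyme that acts as E2 and E3 at once, had the lowest ratio of the 82 genes. Its values ran from -1.02 in animal 5 to -0.43 in animal 3, with a median of -0.65, and all animals lay below the pool. The mean was -0.68 ± 0.17, 1.61-fold lower (adjusted p = 1.53e-07 by limma), and -0.60 on the 14 arrays. It was -0.36 with HFD RNA in Cy5 and farther below 0 in Cy3. Of its 9 further probes 4 were lower, with a median of -0.08, and the mean of all its probes was -0.16. UBE2H, which acts with the CTLH ligase, whose yeast counterpart degrades gluconeogenic enzymes, was lower at -0.53 ± 0.14, from -0.75 to -0.30, and at -0.46 on the 14 arrays. Of its 4 further probes 3 were lower. UBE2Q2 was higher at 0.25 ± 0.11, and 2 of its 3 further probes were higher too. UBE2CBP, which is no E2 enzyme, was lower at -0.37 ± 0.09.

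**Figure D3:**
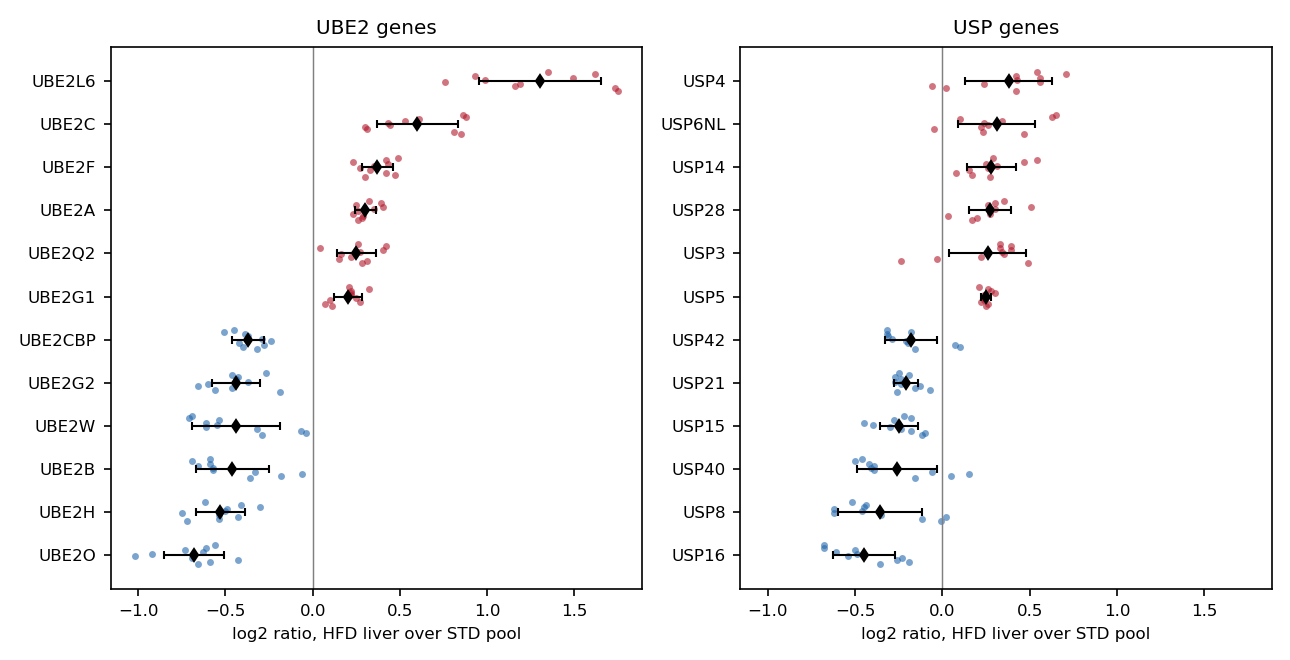
Log2 ratio (HFD liver over STD pool) of the 6 highest and 6 lowest called genes of each family. Small points are the 10 animals, diamonds and bars the mean ± SD. UBE2L6 runs from 0.76 to 1.75 and USP5 from 0.21 to 0.30, the widest and the narrowest of the called higher genes shown.

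Of 3 USP genes of the proteasome and of free ubiquitin, 2 were higher on their brightest probes and none lower. Of all genes tested 31.4% were higher and 28.9% lower. USP14, which trims chains on the proteasome, had a lowest ratio of 0.08, a median of 0.27 and a highest of 0.54, and was higher at 0.28 ± 0.14 (adjusted p = 6.52e-05 by limma). It was at 0.20 on the 14 arrays. Of the 4 further probes of USP14, 1 was higher at 0.20 and 1 lower at -0.19, with a median of 0.02 over the 4. USP5, which takes free chains apart into single ubiquitin, had the most even values of the set, between 0.21 and 0.30 in all 10 animals. It was higher at 0.25 ± 0.03 (adjusted p = 3.15e-07 by limma) and at 0.25 on the 14 arrays, and 9 of its 11 further probes were higher. USP13, a relative of USP5, was at 0.04 ± 0.08 and was not called.

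Of the USP genes of chromatin and DNA repair, 5 of 11 were higher and 3 lower. USP22, the histone deubiquitinase of the SAGA complex, was higher at 0.24 ± 0.10, from 0.13 to 0.40, and at 0.23 on the 14 arrays. USP28, which stabilises MYC, was higher at 0.27 ± 0.12. USP3, a histone deubiquitinase, was higher at 0.26 ± 0.22, with animals 2 and 3 at -0.24 and -0.03, and on the 14 arrays it was not called (0.16). Of its 5 further probes none was higher and 3 were lower. Its brightest probe is of a transcript read as the opposite strand by the score described further on. USP16, which removes ubiquitin from histone H2A, was the lowest USP gene, with a lowest ratio of -0.68, a median of -0.50 and a highest of -0.19. It was lower at -0.45 ± 0.18 (adjusted p = 8.42e-06 by limma) and at -0.24 on the 14 arrays. All 5 of its probes were lower, between -0.47 and -0.35, and all came from 1 assembled transcript whose strand was not settled. USP21, another histone deubiquitinase, was lower at -0.21 ± 0.07 and at -0.12 on the 14 arrays. USP1, which acts on the replication clamp, was lower at -0.13 ± 0.09 and was at -0.03 on the 14 arrays, where it was not called. USP7, which stabilises MDM2, was at -0.06 ± 0.14 and was not called on its brightest probe. Of its 12 further probes 11 were lower and 1 was higher, and 9 of the 11 were of a transcript that scored as the opposite strand.

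Among USP genes of membrane traffic and organelles, 3 of 7 were higher and 2 lower. USP8, which acts on receptors in endosomes, was lower at -0.36 ± 0.24. Its animals 1, 2 and 3 lay between -0.12 and 0.02 and the other 7 between -0.62 and -0.35, and on the 14 arrays it was at -0.11 and not called (adjusted p = 0.0650 by limma). USP9X was lower at -0.12 ± 0.13 with probes in both directions, 3 of 12 further ones higher and 5 lower. USP30, on the outer membrane of mitochondria, was higher at 0.17 ± 0.09. USP20, which stabilises HMG-CoA reductase in liver after feeding, was higher at 0.14 ± 0.10 on its brightest probe, while its 18 further probes had a median of 0.41 and 15 of them were higher, none lower. USP19 was at -0.03 ± 0.15 and was not called.

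In the signalling group 5 of 11 were higher and 3 lower. USP4, which acts on TGF-beta receptor and TRAF proteins, had the highest ratio of the USP genes, with a lowest value of -0.06, a median of 0.43 and a highest of 0.71. Animals 2 and 3 lay at 0.02 and -0.06, the other 8 at 0.24 or above. It was higher at 0.38 ± 0.25 (adjusted p = 0.000283 by limma) and at 0.19 on the 14 arrays. USP25 was higher at 0.18 ± 0.10, and 13 of its 17 further probes were higher. USP15 was lower at -0.25 ± 0.11, with -0.18 on the 14 arrays and 2 of 15 further probes higher and 4 lower. USP2 at -0.03 ± 0.07 and USP10 at -0.01 ± 0.08 were not called. USP2 was at 0.13 with HFD RNA in Cy5 and at -0.20 in Cy3.

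USP39, of the spliceosome, and USP53 and USP54, long held to lack protease activity, were all lower on their brightest probes, with ratios between -0.14 and -0.10. USP54 was at -0.05 on the 14 arrays and not called, and of its 7 further probes the 1 called was higher at 0.67. Of the other 11 USP genes 3 were higher and 3 lower. USP40 was lower at -0.26 ± 0.23, but 2 of its 3 further probes were higher at 0.41 and 0.42, and the brightest probe was at 0.06 on the 14 arrays. USP42 was lower at -0.18 ± 0.15 and at -0.02 on the 14 arrays, where it was not called. USP6NL, a GTPase activator that is no protease, was higher at 0.31 ± 0.22.

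Without the 6 arrays that stood apart, 24 of the 82 genes were higher and 14 lower, against 24.9% and 18.3% of all genes on the same 14 arrays (43.2% in either direction). Of the 36 higher genes 23 were called higher again, and of the 24 lower ones 14 were called lower again. None was called in the opposite direction, and USP27X was called on the 14 arrays alone. By role, 4 of 11 USP genes of chromatin were higher and 2 lower on the 14 arrays, 3 and 1 of 11 in signalling, 2 and 1 of 7 in membrane traffic and 0 and 1 of the other 11. Among the genes no longer called were UBE2J2, UBE2M, USP1, USP3, USP8, USP40 and USP42.

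**Figure D4:**
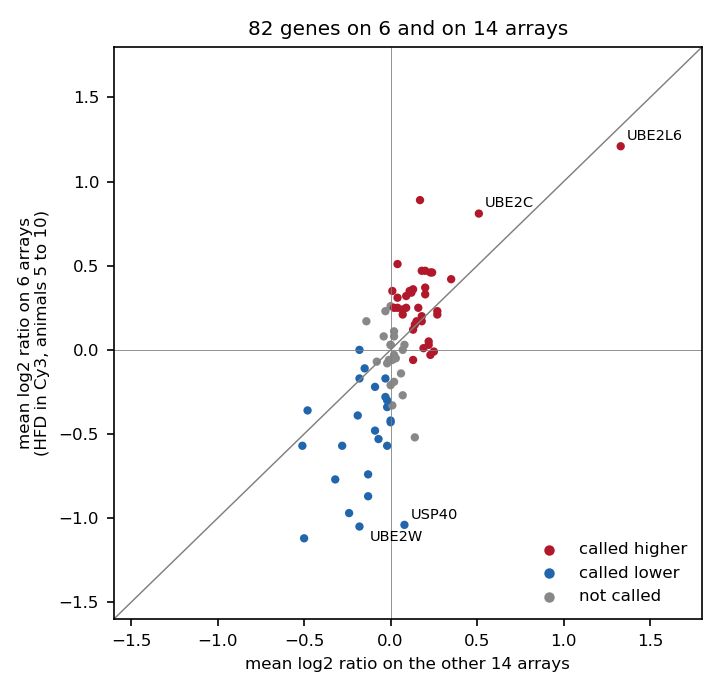
Mean log2 ratio (HFD over pool) of the brightest probe of each of the 82 genes on the other 14 arrays (horizontal) and on the 6 arrays that stood apart (vertical), coloured by call, with a diagonal at equal values. USP40 lies far below the diagonal, at -1.04 on the 6 arrays and 0.08 as a plain mean of the 14.

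Probes of 1 gene often pointed in opposite directions. Of 149 UBE2 probes that passed the brightness filter 43 were higher and 59 lower, and of 292 USP probes 113 and 76, against 31% higher and 28.2% lower (59.2% in either direction) of all probes of named genes. Of the 56 called genes with further probes, 24 (42.9%) had a further probe called the other way, against 22.9% of 6943 such genes on the whole array, where the median number of further probes was 3 against 4 here. The array was built from assembled transcripts, and 58 of the 82 genes had probes of more than 1 transcript. In 20 of these (34.5%), 1 transcript was called only higher and another only lower, against 20.7% of 7212 such genes on the whole array, with a median of 3 transcripts in both. Probes with the same letters gave like values. A USP20 probe that is on the array under a pair of transcripts gave 0.43 and 0.40. A pair of UBE2D3 probes that share 43 bases gave -0.69 and -0.70, whereas a pair of USP22 probes that share 26 bases gave -0.07 and 0.24.

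Some probes of 1 gene were complementary to each other, so that they follow opposite strands of the same stretch. A complementary stretch of at least 20 bases was found in 6 pairs of probes in 4 of the 82 genes, and in 1261 pairs in 893 genes on the whole array. One such pair of each of the 4 genes is printed with the complementary bases in capitals, since the strands differed in ratio.
USP4, ratio 0.38: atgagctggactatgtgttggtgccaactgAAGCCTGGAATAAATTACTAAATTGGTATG
USP4, ratio -0.15: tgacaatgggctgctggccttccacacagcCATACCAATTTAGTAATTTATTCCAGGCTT
UBE2D3, ratio -0.08: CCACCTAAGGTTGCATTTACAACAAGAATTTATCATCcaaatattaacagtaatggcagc
UBE2D3, ratio -0.66: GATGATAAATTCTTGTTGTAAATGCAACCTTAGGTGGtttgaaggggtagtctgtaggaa
USP7, ratio 0.26: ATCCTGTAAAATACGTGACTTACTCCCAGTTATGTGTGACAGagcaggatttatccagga
USP7, ratio -0.25: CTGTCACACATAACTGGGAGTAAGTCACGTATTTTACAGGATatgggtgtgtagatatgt
USP20, ratio 0.54: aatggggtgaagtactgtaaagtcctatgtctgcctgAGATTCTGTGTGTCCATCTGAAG
USP20, ratio 0.13: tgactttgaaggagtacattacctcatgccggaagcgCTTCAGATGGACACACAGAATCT
In all 4 pairs the probe listed second, whose letters resembled codons less, had the lower ratio. This held for 5 of the 6 pairs, with another USP7 pair (-0.27 and -0.12) as the exception, and for 74.3% of the 1261 pairs on the array. Their distance was larger on the 6 arrays: the USP4 pair stood at 0.95 and -0.30 there against 0.14 and -0.09 on the 14, and the UBE2D3 pair at -0.25 and -1.56. The second UBE2D3 probe was at -0.28 on the 14 arrays.

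To place a strand where no complementary partner exists, the letters of each probe were scored, as in ordering those pairs, by how much more they resembled codons as deposited than as the opposite strand. The score was learnt from 2000 bright probes, and gave the strand as deposited for 74.5% of 2000 bright probes held out, so it is weak for a single probe and was summed over the probes of a transcript. It says little of stretches that code for no protein. By this score, 16 transcripts of the 82 genes read as the opposite strand (sum of -3 or less) and 48 as deposited (3 or more). The median ratio of the 16 was -0.21, and 14 of them lay below 0. The median of the 48 was 0.08, and 12 lay below 0. The same order held over all named genes, with medians of -0.09 for 3166 transcripts and 0.04 for 8405, and with 73.7% and 34.1% below 0. For the 16 the median was -0.53 on the 6 arrays and -0.08 on the 14. The strand of the labelled RNA that bound was not measured, and its part in these ratios was not tested.

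**Figure D5:**
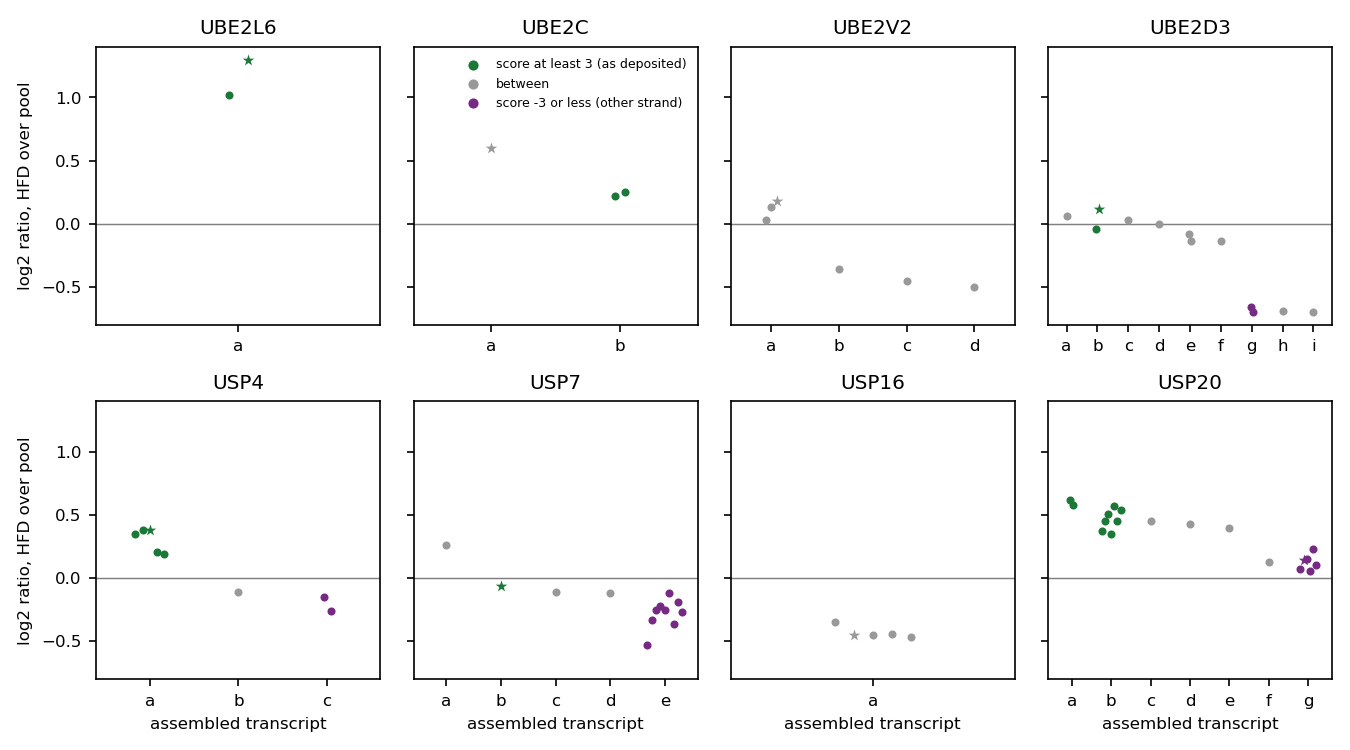
Log2 ratio (HFD liver over STD pool, vertical axis) of every probe that passed the brightness filter in 8 genes, by assembled transcript (letters, ordered by median), with the brightest probe as a star and colour for the codon score of the transcript. UBE2L6 has both probes above 1, USP16 all 5 between -0.47 and -0.35, and the 9 probes of 1 USP7 transcript that score as the opposite strand lie between -0.53 and -0.12.

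USP20 shows what the choice of probe does to a member. Its brightest probe, at 0.14, belongs to a transcript that scored as the opposite strand. With such transcripts left out the brightest probe of USP20 gave 0.35. UBE2G1 and USP3 then turned from higher to lower, at -0.58 and -0.20, and UBE2Z also changed its probe. The UBE2G1 probe then used is of a transcript with a score of -2.6, just short of the cut of -3. As a plain mean it was at -1.48 on the 6 arrays and at -0.20 on the 14. USP39 and USP42 kept no probe.

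The wider pathway went in both directions, as did all genes tested, of which 31.4% were higher and 28.9% lower. Of 8 E1 activating enzymes 3 were higher and 1 lower. UBA6, the second activating enzyme for ubiquitin, was higher at 0.29 ± 0.11 and at 0.19 on the 14 arrays, and so was NAE1, of the NEDD8 pathway, at 0.25 ± 0.09. UBA7, the E1 enzyme for ISG15, was higher at 0.13 ± 0.11. It was well above background on 17 arrays in HFD RNA and on 9 in the pool. It thus passed the filter of 10 arrays only through HFD RNA, the side on which it was higher. Of 10 tested genes of 11 for ubiquitin and its relatives 3 were higher and 6 lower. SUMO3 (-0.41 ± 0.05) and NEDD8 (-0.34 ± 0.19) were among the lower. E2 enzymes with other names had 4 of 8 higher and 2 lower, with ATG3 at 0.23 ± 0.12 and TSG101 at 0.21 ± 0.15 among the higher, and UFC1 at -0.40 ± 0.22 and AKTIP at -0.25 ± 0.25 the lower ones. NEDD8 (-0.13), UFC1 (-0.10) and AKTIP (-0.02) were not called on the 14 arrays.

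Of 33 deubiquitinases outside the USP names 27 were tested, with 13 of 27 higher and 6 lower. The shares of all genes were 31.4% and 28.9%, and 24.9% and 18.3% on the 14 arrays. CYLD, which removes signalling chains and restrains NF-kappaB, was higher at 0.59 ± 0.18, and ATXN3 at 0.40 ± 0.12. BRCC3 was lower at -0.26 ± 0.06 and COPS5, a subunit of the COP9 signalosome, at -0.17 ± 0.09, and at -0.11 on the 14 arrays, where 8 of the 27 were higher and 2 lower. Of 49 E3 ligases and scaffolds 20 were higher and 16 lower. MYLIP, the ligase that sends the LDL receptor to degradation, was higher at 0.87 ± 0.20 and RNF145, a ligase of the endoplasmic reticulum that acts on HMG-CoA reductase, at 0.48 ± 0.23, and at 0.29 on the 14 arrays. On those arrays 13 of the 49 were higher and 8 lower. KEAP1, the adaptor that degrades NRF2, was lower at -0.65 ± 0.35 and at -0.20 on the 14 arrays. NEDD4 was lower at -0.50 ± 0.44 and was at -0.01 on the 14 arrays, where it was not called. Of 7 SUMO proteases 3 were higher, SENP7 the most at 0.25 ± 0.15, and 2 lower, SENP6 at -0.12 ± 0.04 and SENP3 at -0.11 ± 0.07, and SENP7 (0.13) and SENP3 (-0.04) were not called on the 14 arrays.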

How the data were processed

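The deposited scanner files give spot intensity for both dyes, per the file headers from Agilent Feature Extraction. The authors' deposited table gives log2 ratios, and limma is named in the submitters' processing notes. Each array's dye order was read from its array name, since the labels give both dyes for every sample. Mean signals were background-corrected (normexp, offset 50) and loess-normalised within arrays, with control and outlier spots at weight 0. Ratios were turned to HFD over pool, and spots of a probe and the 2 arrays of an animal averaged. Probes well above background in HFD RNA or pool on at least 10 of 20 arrays were kept, and the brightest stood for its gene. Probes with no gene symbol were left out, and results on some genes are not reported here.

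limma 3.58.1 in R 4.3.3 tested the mean of 10 animals against 0, with Benjamini-Hochberg adjustment over all genes. In simulated data of 13830 genes it recovered 82%, 96% and 100% of changes of 0.25, 0.5 and 1 (log2). Few genes were changed there and the noise was independent, without arrays that stood apart, so these shares need not hold for the real arrays. They also do not cover changes near 0.14, the median size in the 82 genes. Permutation tests used 100000 draws. The number of arrays limits the precision.

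Genes were named as the 6 highest and 6 lowest called of each family, those on a list fixed for role, and up to 2 each way in each pathway list; others, such as UBE2T, UBE2S, UBE2R2, UBE2V2, UBE2D4, USP13 and USP54, were named after their values were seen. The genes and lists were chosen with earlier results of these data known. The codon score and the complementary pairs were added after the data were seen.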

Additional observations from a re-analysis of the deposited data

How the results depend on the processing

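The counts, the family medians and 41 named genes were recomputed under 25 alternatives. Of the 41 genes, 17 kept their direction and their side of the threshold throughout, UBE2L6 (1.16 to 1.37), UBE2C (0.36 to 0.73), UBE2F, UBE2G2, UBE2H, UBE2O, USP5, USP16 and USP22 among them. In 16 the sign changed at least once. In 11 of these the gene was called on at least one side of a change, and UBE2J1, UBE2L3, USP7, USP10 and USP19 were called on neither. In 14 the call was lost at least once with the sign kept. Without the 6 arrays, 14 genes were lower (17.1%, against 18.3% of all genes) in place of 24 (29.3%, against 28.9%). In the later scan sessions alone (added after seeing the data) 23 were higher (28%, against 23% of all genes). That was in place of 36 (43.9%, against 31.4%). The USP median was 0.03 with median centring, 0.03 with HFD RNA in Cy5 alone and 0.04 in Cy3 alone, against 0.01. Leaving out 1 animal at a time gave 34 to 36 higher and 24 to 25 lower genes.

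Where all probes of a gene were averaged the UBE2 median was -0.06, and 28 genes were higher (34.1%) and 34 lower (41.5%), against 32.3% and 29.2% of all genes. Among genes called on at least one side, UBE2A (-0.08), UBE2G1 (-0.19), USP3 (-0.09), USP40 (0.15), UBE2D3 (-0.24), UBE2N (-0.05) and UBE2V1 (-0.07) turned. With HFD RNA in Cy5 alone USP40 (0.12), UBE2K (0.02), UBE2M (0.05), USP1 (0.07) and USP2 (0.13) turned (as did, called on neither side, UBE2J1 at 0.03, USP10 at 0.07 and USP19 at 0.07), and on the 14 arrays USP40 (0.06). Without transcripts that read as the opposite strand (added after seeing the data) UBE2G1 (-0.58) and USP3 (-0.20) turned. The cause was not tested. No animal had both arrays in 1 scan session, so an analysis of such animals alone was not run. No paired analysis was possible because there is 1 group.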
